A study of Rattus norvegicus with 6 samples.

Results

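Growth factors in the medium or from neighbouring cells decide whether an oligodendrocyte progenitor cell (OPC) divides, survives or matures, and the cell reads them through receptor tyrosine kinases. The genes described here are 10 such receptors: Pdgfra for PDGF, Fgfr1, Fgfr2 and Fgfr3 for FGFs, Ntrk2 and Ntrk3 for the neurotrophins BDNF and NT3, Igf1r for the insulin-like growth factors, and Egfr, Erbb3 and Erbb4 for EGF-type ligands and neuregulins. Pdgfra has the NCBI Gene ID 25267 and Fgfr2 25022. The genes were taken by gene symbol from a list of 10 receptors known in these cells, and all 10 of 10 had a probe set with values, among 13949 genes measured in all. Each had a single probe set, so no choice between probe sets was needed and isoforms of a receptor could not be told apart.

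The cells were primary rat OPCs, prepared from pups at postnatal day 1 to 2 and left for 2 days in DMEM with N2, B27, antibiotics, NT3 and PDGF. The control group was 3 unstimulated samples, and the other group was 3 samples stimulated with fibrinogen, the clotting protein of blood plasma, for 12 h. Both groups thus came from a medium that already held the ligands of Pdgfra and Ntrk3. RNA from each sample was read on 1 Affymetrix array as log2 levels, on which a difference of 1 is a doubling. The title of the series names BMP signaling in OPCs as the response to fibrinogen, and the comparison asked how the receptor genes stood in cells given it.

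Binding of its growth factor pairs such receptors, which then phosphorylate each other and recruit adaptor proteins that start the RAS-ERK and PI3K-AKT cascades. PDGF acting on PDGFRA is the classic mitogen of OPCs, and FGF2 acts with it to keep the cells dividing and immature. Neurotrophins and IGFs are known to support survival and growth of the lineage, and neuregulins act through the ErbB receptors.

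Fibrinogen moved 2 of the 10 receptor genes past the test, in opposite directions: Fgfr2 rose and Pdgfra fell (limma, Benjamini-Hochberg adjusted p under 0.05 over all genes). By the same rule 432 of 13949 genes (3.1%) were called, 1.81% higher and 1.29% lower. The median log2 change of the 10 receptors was 0.06, with 7 positive and 3 negative, against a median of -0.0033 over all genes. The groups did not overlap for 5 receptors, with Fgfr1, Fgfr2 and Fgfr3 higher and Pdgfra and Erbb4 lower, while 21.3% of all genes had groups that did not overlap (10.7% higher and 10.6% lower). Before adjustment, 4 receptors had a p under 0.05 (2 higher, 2 lower), against 15.6% of all genes. Without control 3 neither call held (0 receptors called; 2 higher, 2 lower before adjustment; limma). In that fit 151 of 13949 genes (1.08%) were called, and the log2 changes were 0.437 for Fgfr2 and -0.425 for Pdgfra.

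As a measure of array background, 956 olfactory and vomeronasal receptor genes, which OPCs are not known to use, were centred on a log2 level of 4.03 (median), and 5.51 was their 95th percentile. All 10 growth factor receptors had a mean level above that percentile, as did 71.3% of genes. All 9 measured markers of the labelled cell type, OPCs, lay above it too, as did 7 of 10 neuron, 8 of 8 astrocyte and 7 of 8 oligodendrocyte markers. Of microglia markers 5 of 10 lay above (Cd68, Tmem119, P2ry12, C1qb and Cx3cr1), with Aif1, Itgam, Ptprc, Csf1r and C1qa below it. Of endothelial markers 1 of 5, Cdh5, lay above. Of pericyte and fibroblast markers 3 of 8 lay above (Col1a1, Col1a2 and Rgs5), and Pdgfrb and Dcn were among those below. Fibrinogen 2 lay farthest from its group mean, with an SD over the genes of 0.146, against 0.0862 to 0.114 for the other arrays. The labels name the samples as replicates and do not say whether they were separate cultures, so p-values may reflect technical spread alone.

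**Figure D1:**
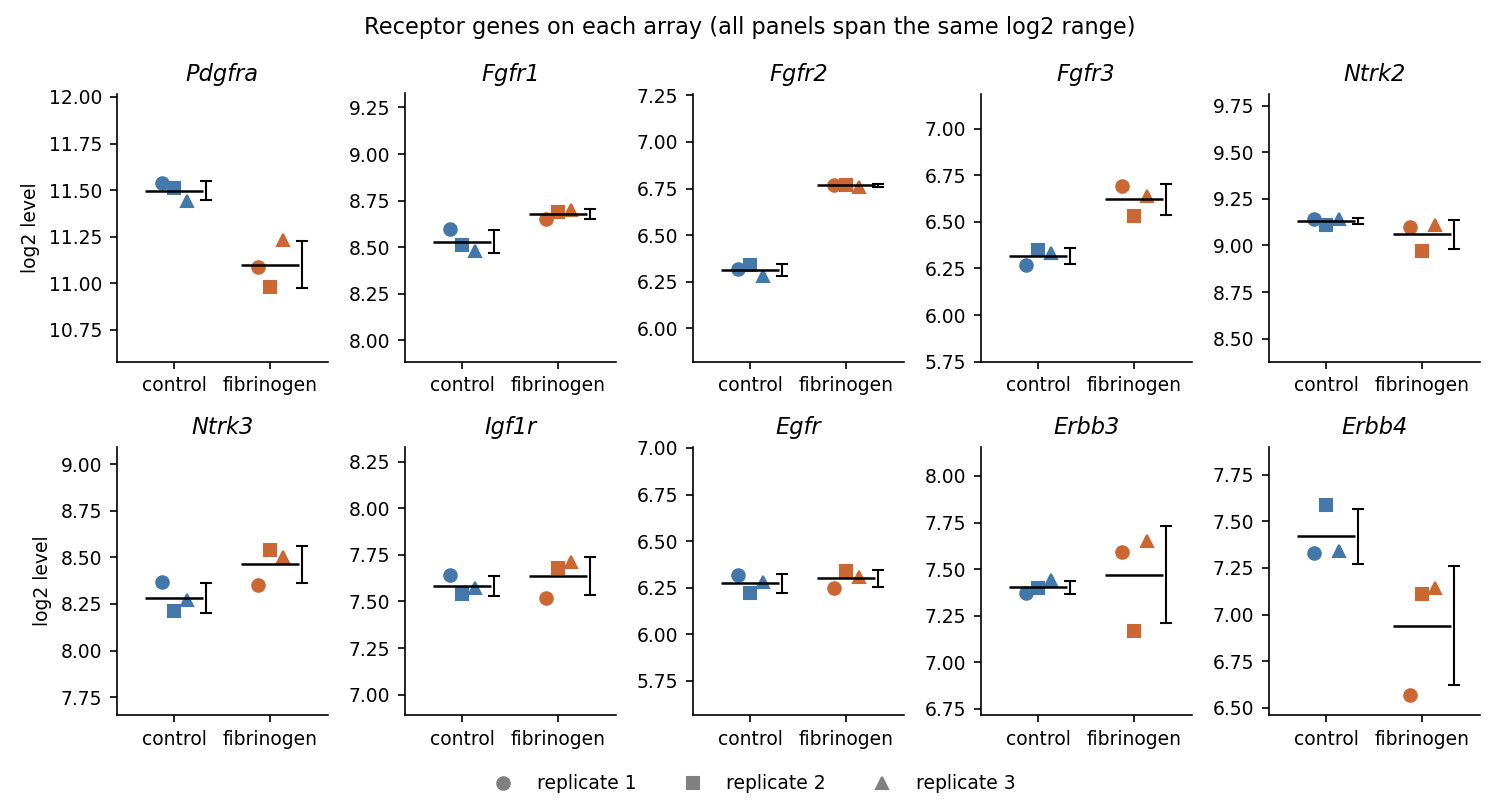
Log2 level of each of the 10 receptor genes (vertical axis) on the 3 control arrays (blue) and the 3 fibrinogen arrays (orange). Symbols mark the replicate number, black lines the group mean and bars the SD of 3 arrays. Fgfr2 is above and Pdgfra below its control range on every fibrinogen array, while the 3 fibrinogen arrays of Erbb3 spread from 7.17 to 7.65.

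The promoters of the receptor genes that passed are shown because these are the regulatory sequences next to the genes whose RNA changed in opposite directions. RefSeq windows of 300 bases, from 250 before to 50 after the gene start, were found for 6 of the 10 receptors. Searched on both strands, capitals mark GGCGCC, a GC-rich element bound by BMP-activated Smads that reads the same on both strands, and CAGAC or its reverse complement GTCTG, a Smad4-binding element. No matches overlap in the windows printed, and a match is a match of letters only.
Fgfr2, GRCr8 chr1:194280865-194281164, strand -: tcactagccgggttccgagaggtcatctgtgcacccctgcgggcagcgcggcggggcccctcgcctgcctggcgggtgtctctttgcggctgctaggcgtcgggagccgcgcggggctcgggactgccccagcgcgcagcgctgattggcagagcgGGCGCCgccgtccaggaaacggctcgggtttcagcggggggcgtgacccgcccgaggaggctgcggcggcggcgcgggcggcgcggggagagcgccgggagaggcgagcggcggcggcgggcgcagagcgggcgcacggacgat
Pdgfra, GRCr8 chr14:33408467-33408766, strand -: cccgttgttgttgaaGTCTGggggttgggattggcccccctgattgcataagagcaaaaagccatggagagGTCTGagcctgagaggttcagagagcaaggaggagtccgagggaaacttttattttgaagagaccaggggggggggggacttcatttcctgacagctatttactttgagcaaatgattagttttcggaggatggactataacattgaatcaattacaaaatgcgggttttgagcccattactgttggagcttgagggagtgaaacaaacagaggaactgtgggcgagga
The Fgfr2 window holds 1 GGCGCC, 0 CAGAC and 48 CpG dinucleotides, with a GC content of 77.7%. The Pdgfra window holds 0 GGCGCC, 2 CAGAC and 5 CpG dinucleotides, with a GC content of 48.0%. Among 33469 rat windows of that length, 11.0% hold GGCGCC and 50.1% hold CAGAC, and the median window has 7 CpG dinucleotides. The Fgfr3 window holds 2 GGCGCC, as do 1.91% of windows in that number or more. It has 31 CpG dinucleotides, more than 90.7% of windows have, and a GC content of 74.7%. The shares given are over all windows and were not matched for GC content. The windows of Egfr, Erbb4 and Igf1r hold neither motif.

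Pdgfra, the receptor through which PDGF drives OPC division, had log2 levels of 11.54, 11.51 and 11.44 in the control samples and 11.09, 10.98 and 11.23 in the fibrinogen samples. All fibrinogen arrays lay below all controls, and the nearest pair of arrays were 0.21 apart. The gene fell by 24.0%, with a log2 change of -0.40 ± 0.08 (SE, n = 3 each) and an adjusted p of 0.0415 (limma). Each SE of a change given here is limma's, whose spread estimate draws on all genes as well as on the arrays of that gene. Among the 9 OPC markers, a list that includes Pdgfra, 3 fell and 0 rose, and 4 had a lower and 1 a higher level at p under 0.05 before adjustment (limma). The others that fell were Gpr17 and Cspg4, and the mean log2 level of the list was 10.52 to 10.54 on control arrays and 10.33 to 10.39 on fibrinogen arrays. The rest did not pass: C1ql1 differed by 0.52 and Cspg5 by -0.38 (adjusted p = 0.0923 and 0.0540, limma). Vcan differed by -0.11, Olig1 by -0.07, Sox10 by -0.05 and Ptprz1 by -0.03. In bulk RNA, fewer OPCs and less of an RNA per OPC cannot be told apart, here or for any gene below. The call for Pdgfra was held in 1 of 6 fits that left out an array: that without fibrinogen 3 gave an adjusted p of 0.0377, those without control 1, control 2 or control 3 gave 0.159, 0.159 and 0.114, and those lacking fibrinogen 1 or fibrinogen 2 gave 0.111 and 0.0628 (limma). It also ended when all probe sets were tested (adjusted p = 0.0624, limma) and when the replicate number was fitted as a block (0.0770, limma).

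The genes whose arrays followed Pdgfra most closely were Nes, an intermediate filament of neural progenitors, Slc9a7, a sodium-proton exchanger of internal membranes, and Ugcg, which makes glucosylceramide. After each gene was centred on its control mean, their root-mean-square differences from Pdgfra over the 6 arrays were 0.034 for Nes, 0.035 for Ugcg and 0.039 for Slc9a7, the smallest among 9939 genes above background. Nes had a log2 change of -0.39, Slc9a7 of -0.41 and Ugcg of -0.39, and of these Ugcg did not pass (adjusted p = 0.0505, limma). As these genes were chosen by closeness to Pdgfra, changes of about this size followed from the choice and are not separate evidence.

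The 3 FGF receptors each had a higher mean level in the fibrinogen samples, and of these Fgfr2 passed. FGFR2 is the form found on maturing and myelinating oligodendrocytes as well as on astrocytes. Its log2 level was 6.32, 6.34 and 6.28 in controls and 6.77, 6.77 and 6.76 with fibrinogen. The fibrinogen arrays agreed within 0.01, and the nearest arrays of the groups were 0.42 apart. Fgfr2 rose by 0.45 ± 0.06 on the log2 scale (SE, n = 3 each), or 1.37-fold, with an adjusted p of 0.00816 (limma), at rank 122 of 13949 by p. Without control 3 its adjusted p was 0.0545 (limma), and without any other single array it was at most 0.0450.

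Fgfr3, which in brain is strongest in astrocytes and their precursors, had log2 levels of 6.27, 6.35 and 6.33 in controls and 6.69, 6.53 and 6.64 with fibrinogen. The groups lay apart by 0.18 at their nearest arrays, and the difference of 0.30 ± 0.07 (SE, n = 3 each) did not pass (adjusted p = 0.0676, limma). It passed without dim genes (0.0379), with array weights (0.0256) and without fibrinogen 2 (0.0392). Fgfr1, the FGF receptor of early progenitors, was 8.60, 8.51 and 8.48 in controls and 8.65, 8.69 and 8.70 with fibrinogen. The arrays came within 0.05 of each other, and the difference of 0.15 ± 0.07 (SE, n = 3 each) did not pass (adjusted p = 0.343, limma), with a 95% interval of -0.01 to 0.31.

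Markers of astrocytes were measured on the same arrays. Of 8, a list that includes Fgfr3, 2 rose and 0 fell, with 6 and 0 before adjustment (p under 0.05, limma): Gfap, the astrocyte filament protein, by 1.24 ± 0.16 and the glutamate transporter gene Slc1a2 by 0.65 ± 0.07 (log2 change, SE). S100b differed by 0.46, Slc1a3 by 0.23 and Aldoc by 0.21, and these did not pass (adjusted p = 0.0516, 0.294 and 0.244, limma). The astrocyte markers Aqp4 and Gja1 differed by 0.01 and -0.04 and did not pass (adjusted p = 0.97 and 0.89, limma). In the whole list 7 changes were positive and 1 negative. The mean log2 level of the list was 8.03 to 8.08 on control arrays and 8.38 to 8.48 on fibrinogen arrays. Of 8 oligodendrocyte markers 1 rose and 1 fell (2 and 1 before adjustment, p under 0.05, limma): Ermn, a cytoskeletal protein of these cells, by 0.91 ± 0.11, and the myelin enzyme gene Cnp, with a log2 change of -0.48 ± 0.08 (SE). Cldn11, a tight junction protein of myelin, differed by 0.38 ± 0.12 (adjusted p = 0.169, limma). The mean log2 level of that list was 7.75 to 7.81 on control arrays and 7.88 to 7.95 on fibrinogen arrays. Of its other genes, Mbp differed by 0.20, Mobp by 0.08, Opalin by 0.08, Mag by 0.02 and Mog by -0.14, and none passed (limma). The part of either cell type in the levels of Fgfr2 and Fgfr3 was not tested.

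Measured within each array, the log2 difference of Fgfr2 from Fgfr1 was 0.30 higher in fibrinogen samples, with a range of 0.28 to 0.34 over the fibrinogen arrays and of -0.06 to 0.05 over the controls, both relative to the control mean. That of Fgfr2 from Fgfr3 was 0.15 higher, with ranges of 0.08 to 0.24 and -0.05 to 0.05. Each of these shifts had an exact permutation p of 0.1 (two-sided), the smallest that 3 against 3 arrays allow, and of 0.175 adjusted over the 7 receptor pairs of 1 family that were compared. The shift of 0.15 of Fgfr3 against Fgfr1 had groups that overlapped (exact permutation p = 0.3, 0.35 adjusted).

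The genes closest to Fgfr2 in their array pattern were Cyria, a binding partner of the GTPase RAC1, Spsb1, an adaptor of ubiquitin ligases, and St3gal5, which makes the ganglioside GM3. Their root-mean-square differences from Fgfr2 were 0.034, 0.037 and 0.043 over 6 arrays, and their log2 changes were 0.45, 0.44 and 0.43, each past the test. These genes were picked for values close to those of Fgfr2, so changes of that size followed from the choice and are not separate evidence.

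**Figure D2:**
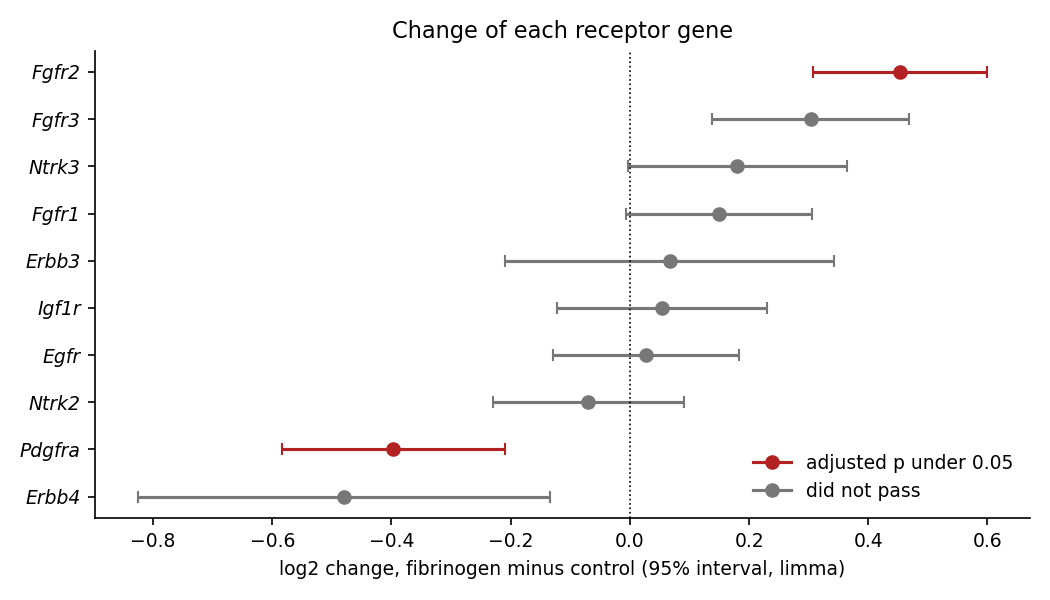
Log2 change of each receptor gene, fibrinogen minus control, in order of size (horizontal axis), with unadjusted 95% intervals from limma. Red marks an adjusted p under 0.05. Fgfr2 and Pdgfra passed, while Erbb4, with the lowest value (-0.48), had the widest interval, -0.83 to -0.13, and did not.

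Neither neurotrophin receptor gene passed. Ntrk3 encodes TrkC, the receptor for the NT3 of the medium, and had log2 levels of 8.37, 8.21 and 8.27 in controls and 8.35, 8.54 and 8.50 with fibrinogen. Fibrinogen 1 lay inside the control range, and the difference of 0.18 ± 0.08 (SE, n = 3 each) had an adjusted p of 0.333 (limma) and a 95% interval of -0.0038 to 0.36. Ntrk2 encodes TrkB, the receptor for BDNF, whose truncated form is the main one in glia. Its log2 levels were 9.14, 9.11 and 9.14 in controls and 9.10, 8.97 and 9.11 with fibrinogen, a difference of -0.07 ± 0.07 (SE, n = 3 each; adjusted p = 0.711, limma). The groups touched at 9.11, and the interval of -0.23 to 0.09 bounds the difference. Relative to Ntrk2 on the same array, Ntrk3 stood 0.25 higher, from -0.05 to 0.08 over controls to 0.10 to 0.42 over fibrinogen arrays (exact permutation p = 0.1, 0.175 adjusted over the 7 pairs).

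Igf1r, the receptor for IGF1 and IGF2, had log2 levels of 7.64, 7.54 and 7.57 in controls and 7.52, 7.68 and 7.71 with fibrinogen. The groups overlapped, with fibrinogen 1 the lowest of the 6 arrays, and the difference was 0.05 ± 0.08 (SE, n = 3 each; adjusted p = 0.814, limma). Its 95% interval ran from -0.12 to 0.23.

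None of the 3 ErbB receptor genes passed (0 of 3, limma; before adjustment Erbb4 alone had a p under 0.05). Egfr, the receptor for EGF and TGF-alpha, had the smallest difference of all 10 genes: 6.32, 6.22 and 6.28 in controls against 6.25, 6.34 and 6.31 with fibrinogen. Its change of 0.03 ± 0.07 (SE, n = 3 each; adjusted p = 0.907, limma) had an interval of -0.13 to 0.18, and its sign turned under quantile normalization. Erbb3 binds neuregulin but has little kinase activity of its own and signals with a partner receptor. Its levels were 7.37, 7.40 and 7.44 in controls, and 7.59, 7.17 and 7.65 with fibrinogen. Fibrinogen 2 was the lowest of the 6 arrays and the other fibrinogen arrays were the highest, so that the difference of 0.07 ± 0.12 (SE; adjusted p = 0.854, limma) was 0.22 without fibrinogen 2 and -0.02 without fibrinogen 3, and passed in neither fit.

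Erbb4, a neuregulin receptor with an active kinase, had log2 levels of 7.33, 7.59 and 7.34 in controls and 6.57, 7.11 and 7.14 with fibrinogen. All fibrinogen arrays were below all controls, by 0.19 at the nearest pair, and fibrinogen 1 was the lowest by far. The difference of -0.48 ± 0.15 (SE, n = 3 each) did not pass (adjusted p = 0.157, limma), and was -0.30 without fibrinogen 1. Within arrays, Egfr relative to Erbb4 stood 0.51 higher with groups that did not overlap (exact permutation p = 0.1, 0.175 adjusted), whereas the shift of 0.55 of Erbb3 relative to Erbb4 had overlapping groups (0.2, 0.28 adjusted). Egfr relative to Erbb3 differed by -0.04 (exact permutation p = 1).

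**Figure D3:**
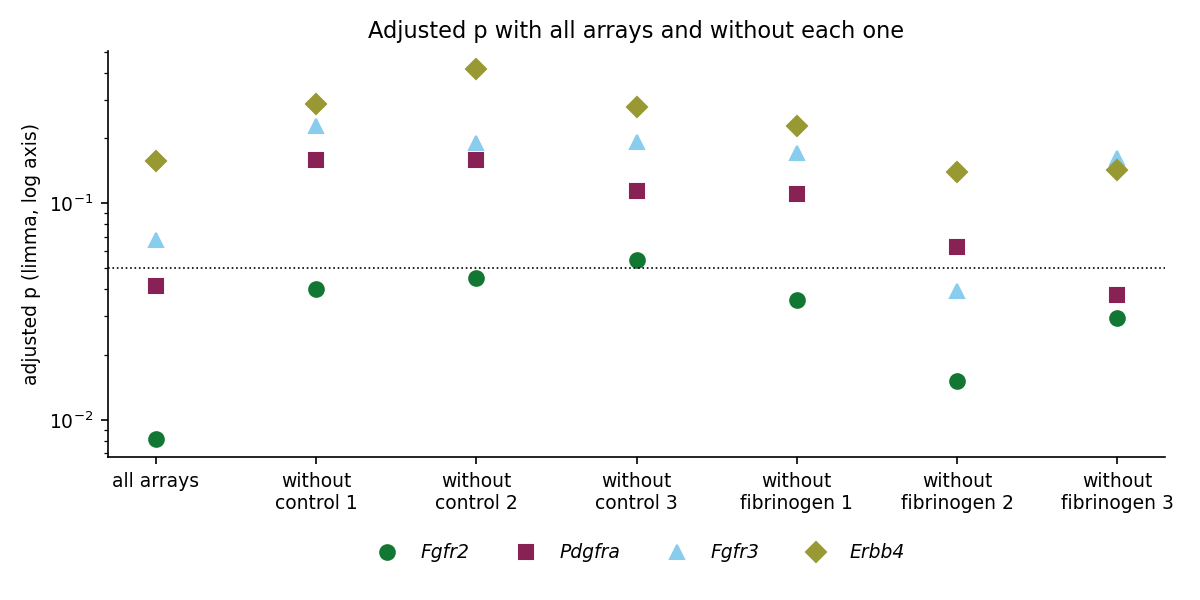
Adjusted p from limma (vertical log axis) for Fgfr2, Pdgfra, Fgfr3 and Erbb4 with all 6 arrays and after each array was left out. The dotted line is 0.05: Fgfr2 lies under it in all fits but that without control 3, Pdgfra with all arrays or without fibrinogen 3, Fgfr3 without fibrinogen 2 alone of these fits, and Erbb4 in none.

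The other genes of these pathways, in 6 lists of ligands, related receptors, IGF-binding proteins, adaptors, negative regulators and core kinases, gave 106 measured genes, of which 7 rose and 0 fell (6.6%, beside 3.1% of all genes; limma). The lists were drawn up with earlier results of these data known, so this share is not independent evidence of a pathway response. The count of 7 varied with the array left out, as did that of all genes. Without control 3 it was 1 (0.943%, beside 1.08% of all genes), and without control 1 or 2 it was 2 (1.89%, beside 1.32% and 1.12%). Without fibrinogen 3 it was 3 (2.83%, beside 2.01%), without fibrinogen 1 it was 5 (4.72%, beside 1.66%), and without fibrinogen 2 it was 8 (7.55%, beside 3.13%). Before adjustment, 19 of the 106 had a higher and 2 a lower level at p under 0.05 (limma). Over all 13949 genes, 1132 were higher and 1041 lower by that measure, 15.6% in either direction. The median log2 change of the 106 was 0.04, against -0.0033 over all genes. Called were 8.33% of the ligand list, 33.3% of IGF-binding proteins (2 of 6) and 4.55% of related receptors. For adaptors the share was 5%, for negative regulators 6.25% and for core kinases 0%.

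Of 24 measured genes of ligands or of their families, 2 rose and 0 fell (3 and 0 at an unadjusted p under 0.05, limma). The list median was 0.02. Fgf2, the FGF that keeps OPCs proliferating and binds the receptors above, had log2 levels of 6.24, 6.60 and 6.33 in controls and 6.92, 7.13 and 6.99 with fibrinogen, a change of 0.62 ± 0.11 (SE, n = 3 each; adjusted p = 0.0180, limma). Pdgfc, a further ligand of PDGFRA, was 8.52, 8.50 and 8.42 in controls and 8.79, 8.87 and 8.99 with fibrinogen, a change of 0.40 ± 0.08 (SE; adjusted p = 0.0309, limma). Every fibrinogen array exceeded every control for both genes. Pdgfa, named for its role as the usual PDGFRA ligand and not by its change, differed by -0.02 ± 0.07 (SE) with a 95% interval of -0.17 to 0.13. Fgf2 lost its call without control 1, control 3 or fibrinogen 3 (adjusted p = 0.0737, 0.0896 and 0.0514), and Pdgfc without control 1, 2 or 3 or fibrinogen 3 (0.0910, 0.114, 0.134 and 0.0891, limma).

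IGF-binding proteins hold IGFs outside the cell and set how much reaches IGF1R. Of 6 measured, 2 rose and 0 fell (3 and 0 at an unadjusted p under 0.05, limma), with a list median of 0.23. Igfbp2 was 9.56, 9.31 and 9.40 in controls and 9.97, 9.96 and 9.91 with fibrinogen, a change of 0.52 ± 0.08 (SE, n = 3 each; adjusted p = 0.0122, limma). Igfbp5 was 6.18, 6.50 and 6.47 in controls and 7.01, 6.83 and 7.06 with fibrinogen, a change of 0.58 ± 0.10 (SE; adjusted p = 0.0235, limma). For both the groups lay apart, while the receptor gene Igf1r itself had overlapping groups. Without control 2 or 3 the adjusted p of Igfbp2 was 0.0643 and 0.0688, and that of Igfbp5 lay between 0.0551 and 0.0828 without any array but fibrinogen 2, where it was 0.0280 (limma).

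Among 22 related receptors and co-receptors, 1 rose and 0 fell (6 and 1 at an unadjusted p under 0.05, limma), with a median of 0.04. Nrp2, a co-receptor for semaphorins and VEGFs, was 6.13, 6.11 and 6.04 in controls and 6.67, 6.60 and 6.66 with fibrinogen. Its change of 0.55 ± 0.07 (SE, n = 3 each; adjusted p = 0.00412, limma) passed in all 6 fits that left out an array and in all 8 other settings.

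Of 20 adaptors and docking proteins, which carry the signal from the phosphorylated receptor inward, 1 rose and 0 fell (4 and 0 at an unadjusted p under 0.05, limma), with a median of 0.03. Shc3, an adaptor of the SHC family, was 8.69, 8.53 and 8.38 in controls and 9.02, 9.43 and 9.05 with fibrinogen, a change of 0.63 ± 0.13 (SE, n = 3 each; adjusted p = 0.0342, limma). Of 16 negative regulators 1 rose and 0 fell (3 and 0 at an unadjusted p under 0.05, limma), with a median of 0.07. Nedd4l, a ubiquitin ligase of membrane proteins, was 8.12, 8.16 and 8.15 in controls and 8.48, 8.66 and 8.51 with fibrinogen, a change of 0.41 ± 0.07 (SE; adjusted p = 0.0245, limma). Shc3 was called in 1 of 6 fits that left out an array, that without fibrinogen 2, with adjusted p-values of 0.0469 to 0.135 over the 6 fits, and was at 0.0556 with all probe sets tested. Nedd4l was called in 2 of 6, those without fibrinogen 1 or 2, with adjusted p-values of 0.0327 to 0.103 (limma).

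The kinases and GTPases of the RAS-ERK and PI3K-AKT cascades gave no call: 0 of 18 measured genes rose or fell (before adjustment 0 were higher and 1 lower at p under 0.05, limma), with a median log2 change of 0.01. The changes ran from -0.25 to 0.18. The lowest p-values were those of the PI3-kinase subunit genes Pik3cb, with -0.25 ± 0.09 (SE; adjusted p = 0.204), and Pik3r3, with 0.18 ± 0.08 (adjusted p = 0.321, limma). RNA levels do not measure the activity of these enzymes.

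**Figure D4:**
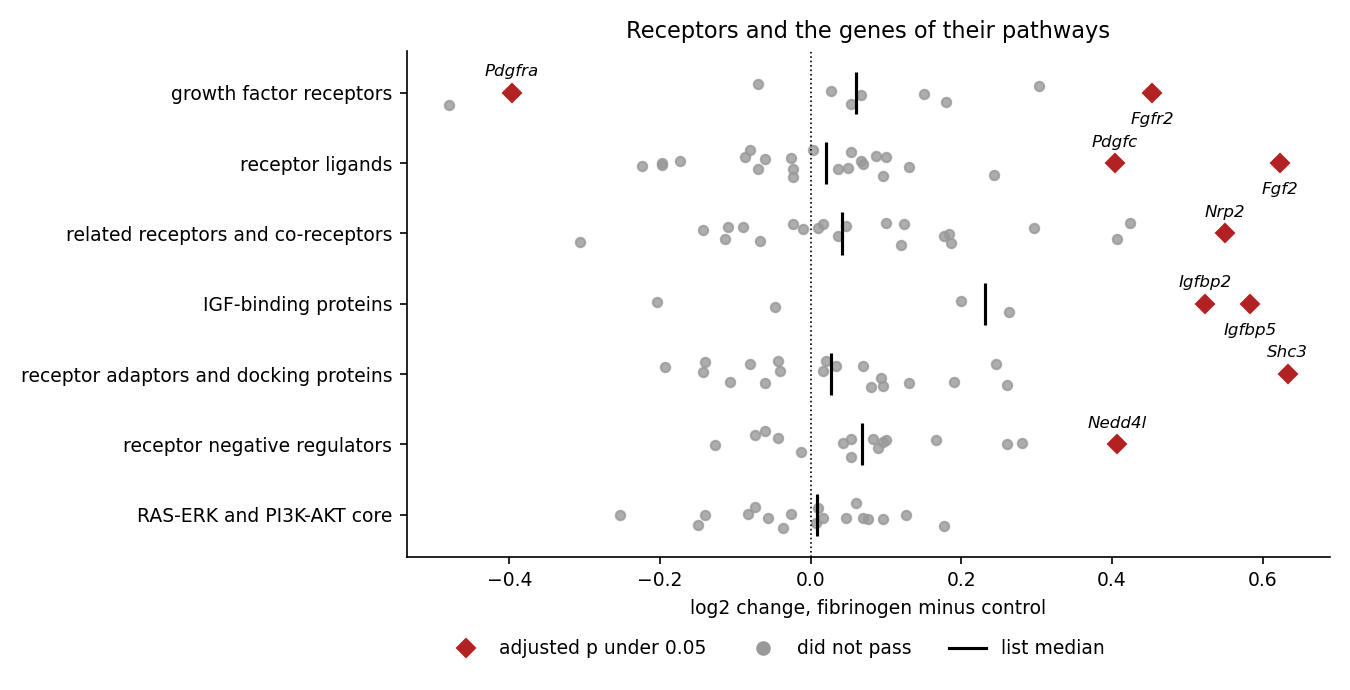
Log2 change, fibrinogen minus control, of the 10 receptors and of the measured genes in 6 lists of their pathways, 1 point a gene (vertical jitter has no meaning). Red diamonds passed the test and are named, and black bars are list medians. The 7 pathway genes that passed lie to the right of 0, between 0.40 and 0.63, and the row of core kinases has none.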

How the data were processed

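The deposited table holds log2 levels, 1 per probe set and array, normalized by the authors. RMA and limma are the tools listed, with no version or role, per the submitters' processing notes, so these were taken to be RMA values; scale and centring are not stated in the table and were inferred from the range of the values. RMA can compress changes of dim genes. Scanner files were not used here, so this step could not be varied.

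Of 25106 probe sets with values, the platform's annotation pairs 14700 with 1 gene symbol. The probe set with the highest mean was kept per gene, giving 13949 genes. Groups came from sample titles. All genes were fitted with limma 3.58.1 in R 4.3.3 (lmFit, eBayes, two-sided, no covariates, no filter), with Benjamini-Hochberg adjustment over all genes and a threshold of 0.05; the procedure was tested on simulated data. No array copied another (no pair shared over 3.63% of its gene values). Replicate numbers shared by the groups were tried as a block. Named genes were the 10 receptors, per pathway list up to 4 genes that passed with the largest change or else the 2 with the lowest p, and the 3 genes most like each receptor that passed; Pdgfa was added. Members and lists were chosen with earlier results of these data known. The number of arrays limits the precision. Promoter sequences are RefSeq's, build GRCr8.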

Additional observations from a re-analysis of the deposited data

How the results depend on the processing

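With the replicate number as a block, 1 receptor gene passed, 1 higher and 0 lower (2 and 2 at an unadjusted p under 0.05, limma), since Pdgfra had an adjusted p of 0.0770; Pdgfc (0.0703) lost its call too. Same-numbered arrays shared little, with correlations of their deviations from the group means of 0.0278, 0.0217 and 0.0109, although each array correlated best with its own number. Counts of all genes under the block were 315. With all probe sets tested, 1 receptor passed, 1 higher and 0 lower (2 and 2 unadjusted), Pdgfra at 0.0624, Shc3 lost its call (0.0556), and 287 genes were called (109 lower). Without dim genes or with array weights 2 receptors were higher, Fgfr3 being added, and array weights gave 659 genes (383 higher, 276 lower). Quantile normalization turned Egfr to -0.0081, and Erbb3 was -0.023 without fibrinogen 3 and 0.217 without fibrinogen 2. Fits that left out 1 array gave 0 to 2 receptors (0 to 2 higher, 0 to 1 lower), 1 to 8 pathway genes (1 to 8 higher, 0 lower) and 151 to 436 genes in all (96 to 263 higher, 55 to 173 lower), the fewest without control 3. Fgfr2 was called in all 8 other settings and in 5 of 6 fits without an array.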
